A study of Homo sapiens with 6 samples.

Results

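The integrins and laminins were the genes whose symbols are those of an integrin alpha chain, an integrin beta chain (ITGB followed by a number) or a laminin alpha, beta or gamma chain (LAMA, LAMB or LAMC followed by a number). The rule used symbols only and no measured value, and it found 38 of the 20030 genes in the table: 18 integrin alpha chains, 8 integrin beta chains and 12 laminin chains. The samples were 6 RNA sequencing libraries of 786-O, an established cell line from a clear cell renal cell carcinoma (ccRCC), a kidney cancer of tubular epithelium. In 3 libraries (shYB1) the cells carried a lentiviral short hairpin RNA against YB1, the Y-box binding protein encoded by YBX1, which binds RNA and DNA and controls transcription and translation. In the other 3 (vector) the cells carried a scrambled hairpin in the same kind of vector. All cells were at passages 16 to 18 and had been selected with puromycin, so that infection and selection are shared by both groups. The design text of the series speaks of several independent hairpins, whereas the labels give a single shYB1 group, so the libraries could not be assigned to a hairpin, and an effect of YB1 loss cannot be told apart from an effect of the hairpins used. Nothing in the labels says that the 3 libraries of a group came from separate cultures, and the p-values therefore measure the spread between these libraries, which may be technical.

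Integrins are receptors that join cells to the matrix around them. Each is a pair of an alpha and a beta chain, and the pairing decides the ligand: ITGB1 pairs with many alpha chains, among them ITGA3 and ITGA6, which bind laminins, ITGA1 and ITGA2, which bind collagens, and ITGA5, which binds fibronectin. ITGAV pairs with ITGB1, ITGB3, ITGB5, ITGB6 or ITGB8 and recognises ligands with the RGD tripeptide, whereas ITGB4 pairs with ITGA6 in hemidesmosomes. Laminins are trimers of an alpha, a beta and a gamma chain and form the sheet of the basement membrane, the layer that surrounds kidney tubules. The trimers differ by chain: LAMC1 is the gamma chain of most laminins, and LAMA3 and LAMB3 are chains of an epithelial laminin that ITGA3 and ITGA6 bind. In the annotation deposited with the values, 32 of the 38 genes carry the KEGG pathway ECM-receptor interaction, which holds 82 genes of the table, and 12 carry the GO term basement membrane, of 78.

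The values were FPKM, fragment counts scaled by transcript length and by the size of the library, so that levels can be compared between genes. The depth of the libraries is unknown from such values, but the steps among low values gave relative depths of 0.982 to 1.10 times that of shYB1 replicate 1. YBX1 was measured at 366, 373 and 378 FPKM in vector cells and at 167, 166 and 173 FPKM in shYB1 cells. It fell by 1.14 on the log2 scale (SE 0.0312, limma with Benjamini-Hochberg adjustment, adjusted p = 1.53e-08). The renal epithelial markers PAX8 (75.6 to 78.7 FPKM) and KRT8 (201 to 220 FPKM) were present in every library. The leukocyte gene CD3E, the platelet genes GP9, GP1BA and PF4 and the endothelial gene CDH5 were listed at 0 in all 6, while CD14 was at 0.235 to 0.603 FPKM and PECAM1 at 0.230 to 0.406 FPKM. In bulk RNA, fewer cells that express a gene cannot be told apart from less RNA of that gene in each cell.

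The chains covered a wide range of levels. ITGA3 and ITGB1 were above 100 FPKM on average, 11 of the 38 genes were at 10 FPKM or more, 10 lay between 1 and 10 FPKM, and the remaining 17 were below 1 FPKM. The test took in the 21 genes that averaged 1 FPKM or more across all 6 libraries: 6 integrin alpha chains, 7 integrin beta chains and 8 laminin chains. Of the 17 others, 12 had a mean under 0.1 FPKM, and ITGA8 was listed at 0 in every library. Among the alpha chains of the vector cells, ITGA3 made up 83.0% ± 0.332 (SD, n = 3) of the FPKM summed over all 18 alpha chains, ITGAV 9.15% ± 0.346 and ITGA5 6.50% ± 0.194. Among the beta chains ITGB1 held 61.8% ± 0.477 and ITGB5 22.7% ± 0.723 of the sum.

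**Figure D1:**
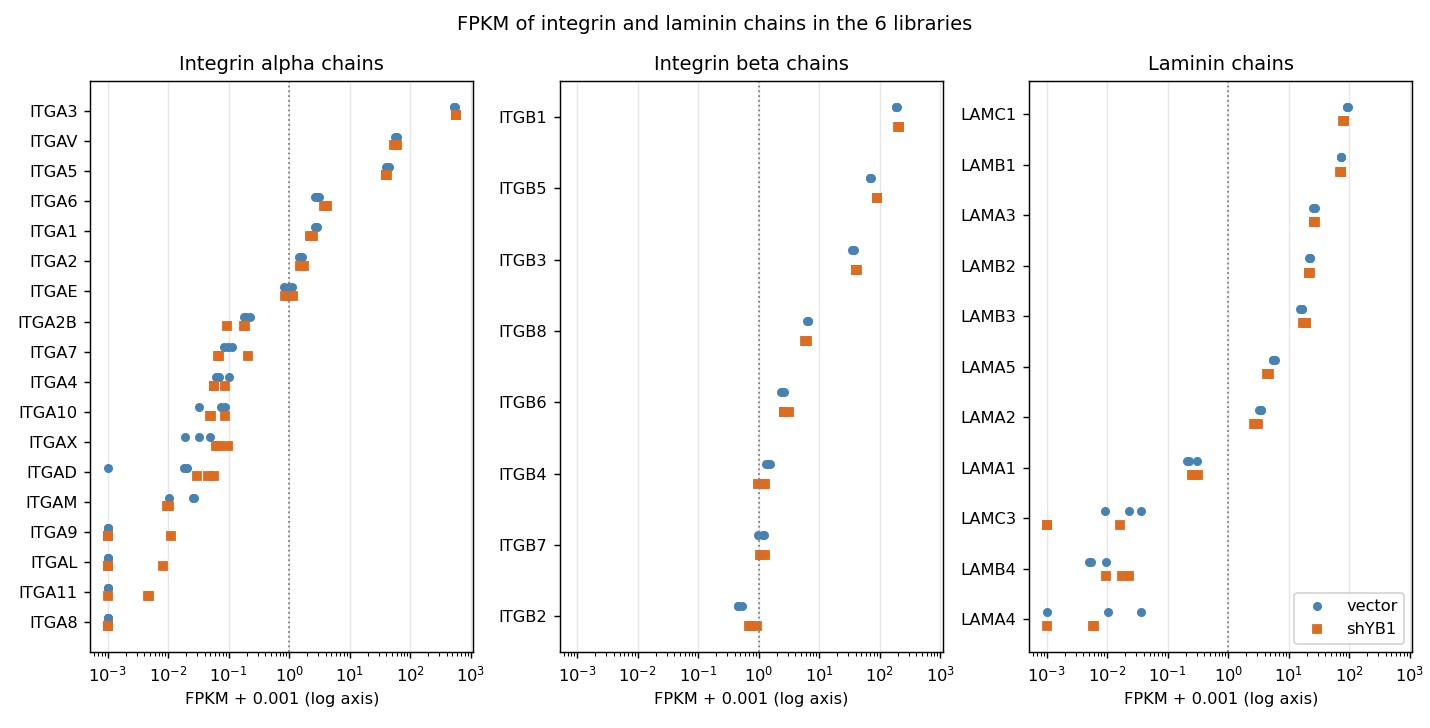
FPKM of integrin and laminin genes in each library, on a log axis after adding 0.001 so that a value of 0 can be drawn, with vector libraries as circles, shYB1 libraries as squares and a dotted line at 1 FPKM. ITGA3, at a mean of 532 FPKM in vector cells, stands above all other chains, and the libraries of both groups lie close together for most genes above 1 FPKM.

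No tested chain differed by as much as 2-fold between shYB1 and vector cells. Of the 21 tested genes, 9 passed the test at an adjusted p of 0.05 (42.9%), against 25.7% of all 10439 genes tested. In the shYB1 libraries 2 genes fell, LAMC1 and LAMA5, where 6.93% of all genes fell. The 7 genes that rose included ITGA6, ITGB5, LAMB3, ITGB3, ITGA3 and ITGB1, where 18.7% of all genes rose. Fold changes ran from -0.30 to 0.47 on the log2(FPKM + 0.1) scale with a median of 0.01, beside a median of 0.055 for all genes tested. With the signs left out, the median was 0.169 for the chains and 0.112 for all genes tested. No chain passed the criteria stated in the study's methods, a 2-fold change with an unadjusted p under 0.05, which 0.22% of all genes did. The 3 vector and 3 shYB1 values did not overlap for 12 of the 21 chains (57.1%, against 42.6% of all genes), with shYB1 above in 7 and below in 5, against 30.1% and 12.5% of all genes.

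Several of the calls depended on how the libraries were scaled. Dividing by size factors from the median of ratios moved the median of all genes tested from 0.055 to -0.001. With the signs left out, the median was then 0.138 for the chains and 0.104 for all genes tested. After that step 4 chains were lower, since ITGA1 and LAMA2 joined LAMC1 and LAMA5, and 3 were higher (ITGA6, ITGB3 and ITGB5), against backgrounds of 12.2% and 11.2%. ITGA6, ITGB3, ITGB5, LAMA5 and LAMC1 passed the test in every setting tried in which they were tested.

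**Figure D2:**
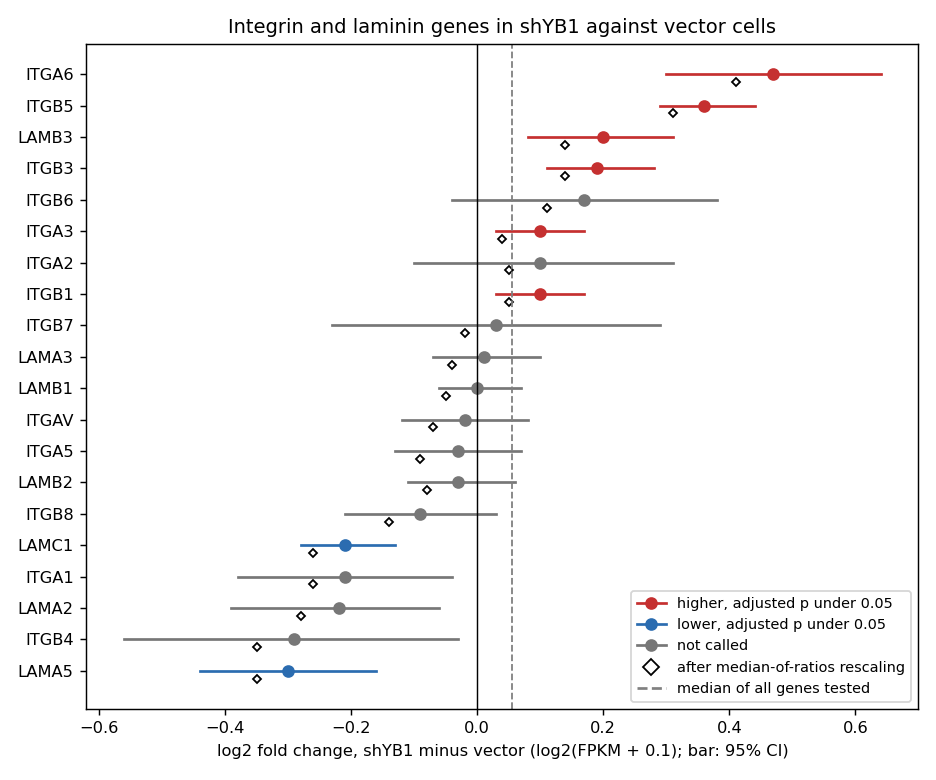
Log2 fold change (shYB1 minus vector) of tested chains with its 95% interval, red where the chain was higher and blue where it was lower at an adjusted p under 0.05, grey where it was not called. Open diamonds give the value after median-of-ratios rescaling and the dashed line the median of all genes tested, and ITGA6 at 0.47 and LAMA5 at -0.30 mark the ends.

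Promoter sequences are shown for 4 chains whose call held in every setting and for LAMB3, the one called chain among those read that had the Y-box core in a window, because YB1 was named for binding the Y-box of promoters, whose core is an inverted CCAAT. The 250 bases upstream of each start listed by RefSeq (GRCh38.p14) were read for 26 of the 38 genes, in 33 windows. The other 12 included ITGA3, ITGA7, ITGA9, ITGAD, ITGAL, ITGAX, ITGB2, ITGB3, ITGB4, LAMA1 and LAMC3. The window of ITGA6 was chr2:172427086-172427335 (plus strand) and that of ITGB5 was chr3:124901419-124901668 (minus strand), the outermost starts of these genes. The window of LAMA5 was chr20:62367313-62367562 (minus strand) and that of LAMC1 was chr1:183023170-183023419 (plus strand). For LAMB3 it was chr1:209651375-209651624 (minus strand), which lies inside the gene at a more internal start. That window is shown because it held the Y-box core, and the windows at the outer LAMB3 starts are not printed. Capitals mark 3 motifs searched on both strands. The first is CCAAT, which reads as its reverse complement when on the opposite strand. The second is the element bound by AP-1, spelled TGANTCA. The third is the GC box, spelled GGGCGG, and no marked stretches overlap in these windows.
ITGA6: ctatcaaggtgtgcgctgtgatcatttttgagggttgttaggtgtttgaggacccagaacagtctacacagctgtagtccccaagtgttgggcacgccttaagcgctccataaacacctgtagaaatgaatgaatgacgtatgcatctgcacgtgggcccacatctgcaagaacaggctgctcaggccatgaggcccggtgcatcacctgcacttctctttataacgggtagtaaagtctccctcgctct
ITGB5: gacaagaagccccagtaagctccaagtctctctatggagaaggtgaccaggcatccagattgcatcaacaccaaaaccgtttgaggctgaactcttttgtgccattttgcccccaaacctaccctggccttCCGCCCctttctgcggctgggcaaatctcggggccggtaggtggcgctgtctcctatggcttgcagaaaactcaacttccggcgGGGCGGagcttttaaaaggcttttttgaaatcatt
LAMA5: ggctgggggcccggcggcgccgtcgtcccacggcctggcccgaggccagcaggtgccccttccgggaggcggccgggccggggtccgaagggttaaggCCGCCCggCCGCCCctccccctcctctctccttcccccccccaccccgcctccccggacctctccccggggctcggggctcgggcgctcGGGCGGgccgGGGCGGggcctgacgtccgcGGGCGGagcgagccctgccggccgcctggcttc
LAMC1: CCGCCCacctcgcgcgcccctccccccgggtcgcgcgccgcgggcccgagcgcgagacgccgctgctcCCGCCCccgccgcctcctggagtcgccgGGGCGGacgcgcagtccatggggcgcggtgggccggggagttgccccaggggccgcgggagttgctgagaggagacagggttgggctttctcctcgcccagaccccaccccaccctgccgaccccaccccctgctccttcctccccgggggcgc
LAMB3: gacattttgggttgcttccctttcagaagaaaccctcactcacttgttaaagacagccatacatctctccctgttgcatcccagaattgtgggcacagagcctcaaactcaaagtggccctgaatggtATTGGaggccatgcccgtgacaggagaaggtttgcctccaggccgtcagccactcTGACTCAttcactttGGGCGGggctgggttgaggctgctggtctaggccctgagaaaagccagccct

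The letters CCAAT were found in 2 of the 24 windows of tested chains (8.33%), those of LAMB3 and ITGB8, against 33.3% of promoters of tested genes. Over all 33 windows read they were in 5 (15.2%), against 32.0% of all 35116 promoters. Some chains had several windows, so the windows are not separate genes. In the LAMB3 window shown, the element began 122 bases upstream of the start. The windows at the outer LAMB3 starts (chr1:209652330-209652579 and chr1:209652426-209652675) held neither CCAAT nor TGANTCA. None of the windows of ITGA6, ITGB5, LAMA5 and LAMC1 held it. GGGCGG was in 15 of the 24 windows (62.5%), beside 65.4% for tested genes, and the LAMA5 window held 5 copies in a sequence of 82.8% GC. Windows at more internal starts of ITGA6 (chr2:172427336-172427585) and ITGB5 (chr3:124887366-124887615), not printed, held 3 copies of GGGCGG each. A further ITGB5 window (chr3:124887685-124887934) held none. TGANTCA was in 2 of the 24 (8.33%), those of LAMA3 and LAMB3, beside 4.18% for tested genes. A match or its absence describes these letters in this window and nothing more.

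Among the alpha chains, the laminin receptor chain ITGA6 moved most. ITGA6 (chromosome 2, 172427336 to 172506459, plus strand, GRCh38) was at 2.90, 3.11 and 2.63 FPKM in vector cells and at 4.05, 4.17 and 3.83 FPKM in shYB1 cells. All 3 shYB1 values lay above the highest vector value. The means were 2.88 ± 0.241 and 4.01 ± 0.173 FPKM (SD, n = 3 each), and ITGA6 rose by 0.47 (SE 0.0783, 95% interval 0.30 to 0.64, limma, adjusted p = 0.00208). It was a minor alpha chain in both groups, 0.450% of the summed alpha chain FPKM in vector and 0.592% in shYB1 libraries.

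ITGA3, the partner of ITGB1 in a laminin receptor and the most abundant chain of all, was at 522, 528 and 545 FPKM in vector cells and 566, 571 and 573 FPKM in shYB1 cells. The groups did not overlap, and the difference of 0.10 (SE 0.0298, 95% interval 0.03 to 0.17) passed the test with an adjusted p of 0.0317 by limma. It was 0.04 with an adjusted p of 0.225 after median-of-ratios rescaling, and the call was also lost with a variance prior without trend. Leaving out any of vector replicates 1 and 2 or shYB1 replicates 1, 2 and 3 lost the call as well.

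The collagen receptor chains were low. ITGA1 was at 2.66, 2.88 and 2.74 FPKM in vector cells and 2.50, 2.37 and 2.25 FPKM in shYB1 cells. Every shYB1 value lay below every vector value, but the difference of -0.21 had an adjusted p of 0.0671 by limma (0.0295 after rescaling, at -0.26). ITGA2 was at 1.47, 1.61 and 1.49 FPKM against 1.65, 1.76 and 1.52 FPKM, with overlapping groups and a 95% interval of -0.10 to 0.31.

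The fibronectin receptor chain ITGA5 and the RGD receptor chain ITGAV showed no detectable difference. ITGA5 was at 39.7, 41.2 and 44.0 FPKM in vector cells and 39.6, 42.0 and 40.6 FPKM in shYB1 cells, with an interval of -0.13 to 0.07. ITGAV was at 56.9, 60.9 and 58.0 FPKM in vector cells and 60.5, 58.5 and 54.7 FPKM in shYB1 cells, with an interval of -0.12 to 0.08. The groups overlapped for both genes.

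Among the beta chains, ITGB5 rose with the smallest adjusted p of the 21 tested chains. ITGB5 (chromosome 3, 124761948 to 124901418, minus strand), a partner of ITGAV in a vitronectin receptor, was at 69.6, 68.1 and 72 FPKM in vector cells and at 89.8, 90.6 and 89.3 FPKM in shYB1 cells. The lowest shYB1 library lay well above the highest vector library. The means were 69.9 ± 1.96 and 89.9 ± 0.685 FPKM, a rise of 0.36 (SE 0.0326, 95% interval 0.29 to 0.44, limma, adjusted p = 5.5e-05), and 0.31 after rescaling. Its share of the beta chain sum was 22.7% ± 0.723 in vector and 25.9% ± 0.309 in shYB1 libraries.

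ITGB3, the other well expressed partner of ITGAV, was at 34.5, 37.1 and 35.9 FPKM against 42.3, 40.8 and 39.9 FPKM. Again no values overlapped, and ITGB3 rose by 0.19 (SE 0.0402, limma, adjusted p = 0.00638). Its level is uncertain because 50.7% of its 50-base words also occur in the gene model AC068234.1 on the same strand.

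ITGB1, the common partner, was at 188, 193 and 189 FPKM in vector cells and 206, 208 and 199 FPKM in shYB1 cells. The groups were apart by a small margin, with a difference of 0.10 (SE 0.0311, 95% interval 0.03 to 0.17) and an adjusted p of 0.0358 by limma. After rescaling it was 0.05 with an adjusted p of 0.279. The call was also lost without the expression filter, with a variance prior without trend, and without vector replicates 1 or 2 or shYB1 replicates 1 or 2.

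The 4 other tested beta chains did not pass the test. ITGB4, the hemidesmosome partner of ITGA6, was at 1.34, 1.44 and 1.52 FPKM in vector cells and 0.956, 1.27 and 1.24 FPKM in shYB1 cells, which did not overlap, at -0.29 with an adjusted p of 0.0990 by limma. ITGB8, a partner of ITGAV that binds latent TGF-beta, was at 6.35, 6.63 and 6.46 FPKM against 6.35, 6.06 and 5.86 FPKM, with an interval of -0.21 to 0.03. ITGB6, another partner of ITGAV, was at 2.32, 2.65 and 2.42 FPKM against 2.62, 2.59 and 3.17 FPKM. For ITGB8 the groups touched at a single value and for ITGB6 they overlapped, and 17.8% of the 50-base words of ITGB6 are shared with AC092153.1. ITGB7 was at 1.19, 1.21 and 0.968 FPKM against 1.27, 1.07 and 1.10 FPKM, and 42.1% of its exonic bases lie opposite exons of ZNF740, whose reads cannot be told apart unless the counting used strand, which the sources used here do not give.

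Among the laminins, the common gamma chain fell. LAMC1 (chromosome 1, 183023420 to 183145592, plus strand) was at 92.5, 95 and 91.2 FPKM in vector cells and at 80.7, 82.3 and 78.5 FPKM in shYB1 cells. All shYB1 libraries were below all vector libraries. The means were 92.9 ± 1.91 and 80.5 ± 1.94 FPKM, and LAMC1 fell by 0.21 on the log2 scale (SE 0.0331, 95% interval -0.28 to -0.13, limma, adjusted p = 0.00173).

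LAMB3, which joins LAMA3 in an epithelial laminin, was at 16.5, 15.6 and 16.6 FPKM in vector cells and at 17.3, 19.4 and 19.2 FPKM in shYB1 cells. It rose by 0.20 (SE 0.0531, limma, adjusted p = 0.0223), with no overlap between groups, and had an adjusted p of 0.0846 after rescaling. The call was also lost without the expression filter, with a variance prior without trend, and without vector replicate 2 or shYB1 replicates 2 or 3. LAMA3 did not pass the test, at 26.5, 26.9 and 25.4 FPKM against 26.2, 26.8 and 26.4 FPKM and with an interval of -0.07 to 0.10.

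Of the other alpha chains, LAMA5, the broadly expressed chain of basement membranes, fell. It was at 5.49, 5.51 and 5.94 FPKM in vector cells and at 4.61, 4.31 and 4.80 FPKM in shYB1 cells, and every shYB1 value was below every vector value. The means were 5.65 ± 0.256 and 4.57 ± 0.250 FPKM, and the fall was by 0.30 on the log2 scale (SE 0.0644, 95% interval -0.44 to -0.16, limma, adjusted p = 0.00773). LAMA2, the alpha chain of muscle and nerve laminin, was at 3.42, 3.42 and 3.20 FPKM against 3.06, 2.82 and 2.68 FPKM. Its groups did not overlap, but the difference of -0.22 missed the threshold with an adjusted p of 0.0515 by limma, and passed it at 0.0265 after rescaling.

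The common beta chains showed no detectable difference. LAMB1 was at 72, 72.1 and 71.9 FPKM in vector cells and 71.3, 72.5 and 72.6 FPKM in shYB1 cells, and its interval of -0.06 to 0.07 leaves room for a small change only. LAMB2, which replaces LAMB1 in some basement membranes, was at 22.9, 22.6 and 22 FPKM against 21.6, 22 and 22.5 FPKM, with an interval of -0.11 to 0.06. The groups overlapped for both.

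Because both chains of a ratio come from the same library, a ratio does not depend on the scaling. Of 13 ratios between chains that pair or replace each other, picked with their values known, 11 did not overlap between groups, 7 higher and 4 lower in shYB1 cells. For comparison, the groups did not overlap for 42.6% of all single genes tested, and ratios of other genes were not computed. With 3 libraries against 3 the smallest two-sided exact permutation p is 0.1, which each of the 11 had, and the Benjamini-Hochberg value over the 13 was 0.118. No ratio could therefore pass 0.05.

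Of the RNA ratios of ITGB5 and ITGB3 to ITGAV, that of ITGB5 differed more between the groups. Ratios of ITGB6 and ITGB8 to ITGAV were not computed. ITGB5 to ITGAV was 1.22, 1.12 and 1.24 in vector cells and 1.48, 1.55 and 1.63 in shYB1 cells, 1.30 times higher on average. ITGB3 to ITGAV was 0.611 ± 0.00650 and 0.709 ± 0.0180. Both beta chains were thus higher relative to the alpha chain they bind. By contrast, ITGA3 to ITGB1 was 2.80 ± 0.0763 in vector and 2.80 ± 0.0762 in shYB1 libraries (n = 3 each, exact permutation p = 1.0), while ITGA6 to ITGB1 was 0.0151 ± 0.00113 and 0.0197 ± 0.000400.

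Among the laminins, LAMC1 to LAMB1 was 1.29 ± 0.0254 and 1.12 ± 0.0314, or 0.865 times the vector ratio. Every shYB1 library was below every vector library in this ratio. LAMA5 to LAMA3 was 0.802 times and LAMB3 to LAMA3 was 1.14 times the vector ratio. LAMB2 to LAMB1 overlapped between groups at 0.312 ± 0.00600 and 0.306 ± 0.00322.

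**Figure D3:**
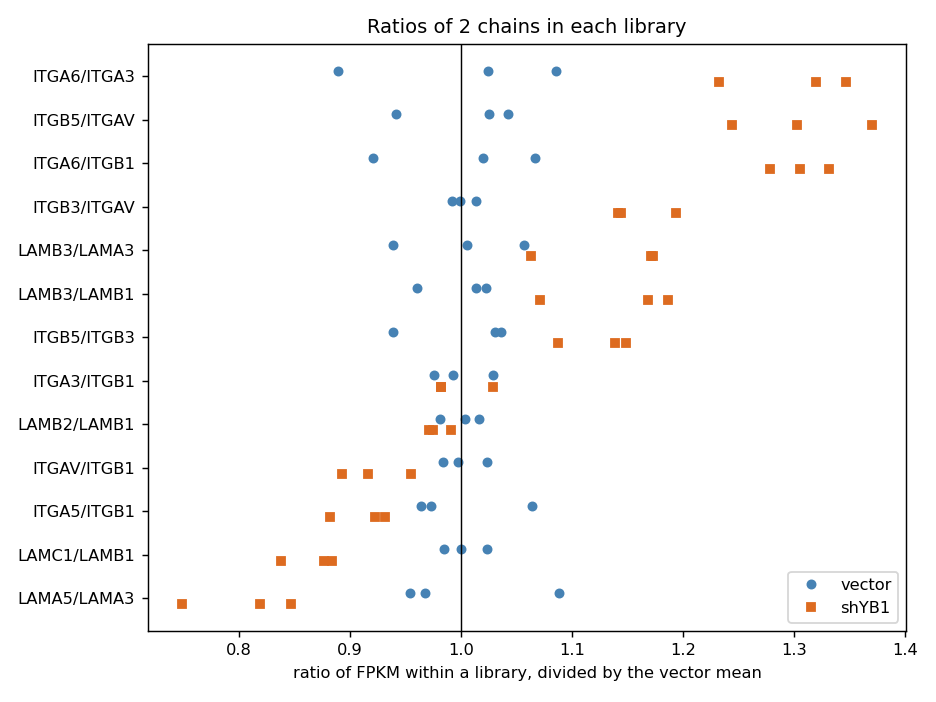
Ratios of FPKM of 2 chains within each library, divided by the mean of the 3 vector libraries, with vector libraries as circles and shYB1 libraries as squares. ITGB5 to ITGAV (1.30) lies to the right and LAMA5 to LAMA3 (0.802) to the left of 1, while ITGA3 to ITGB1 stays at 0.999.

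Chains of leukocytes, platelets and other tissues were near the floor. ITGB2, the beta chain of leukocyte integrins, was at 0.451, 0.450 and 0.522 FPKM in vector cells and at 0.714, 0.921 and 0.703 FPKM in shYB1 cells, below the limit for testing. The groups did not overlap. In a fit with no filter other than a value above 0 in some library, it rose by 0.61 with an adjusted p of 0.0272 by limma. Its alpha partners ITGAL, ITGAM, ITGAX and ITGAD were under 0.1 FPKM in every library, and ITGAL was above 0 in a single shYB1 library (0.00735 FPKM). Of the other leukocyte markers, CD3E was at 0 in every library, PTPRC was at 0 to 0.0164 FPKM, and CD14 overlapped between groups.

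ITGAE, a partner of ITGB7, was at 1, 0.835 and 1.12 FPKM against 1.15, 0.952 and 0.865 FPKM, with a mean of 0.987 FPKM just under the limit of 1. LAMA1, a laminin alpha chain of embryonic basement membranes, had a mean of 0.262 FPKM and the platelet chain ITGA2B one of 0.176 FPKM, both with overlapping groups. ITGA4, ITGA7, ITGA9, ITGA10, ITGA11, LAMA4, LAMB4 and LAMC3 were at most 0.211 FPKM in any library. Among the genes below 0.1 FPKM, ITGAX, ITGAD and LAMB4 lay above and ITGAM below the vector values in every shYB1 library, without passing a limma fit free of the filter (adjusted p = 0.103, 0.111, 0.439 and 0.443).

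A list of 55 genes, of which 46 were tested, held proteins that act on integrins from inside the cell and also tetraspanins and hemidesmosome genes. Of the 46 tested genes 13 rose and 3 fell (28.3% and 6.52%, against 18.7% and 6.93% of all genes), with a median of 0.09 beside 0.055 for all genes. After median-of-ratios rescaling 11 were higher and 4 lower (23.9% and 8.7%, against 11.2% and 12.2% of all genes). The median was then 0.034 beside -0.001 for all genes. TLN1, the talin that activates integrins, was at 50.2, 51.6 and 52.6 FPKM in vector cells and 50, 50.9 and 48.9 FPKM in shYB1 cells, at -0.04 with an adjusted p of 0.380 by limma (-0.10 and 0.0389 after rescaling). PTK2, the focal adhesion kinase, was at 19.8, 19.4 and 20.1 FPKM against 21.1, 21.3 and 20.6 FPKM, at 0.09 with an adjusted p of 0.112. Neither of these central components passed the test.

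Several adaptors and organisers of that list rose. CD82, a tetraspanin that associates with integrins, rose from 12.3 ± 0.590 to 15.1 ± 0.715 FPKM (0.30). FHL2, a LIM protein that binds integrin tails, rose by 0.26, and CRK, an adaptor of focal adhesion signalling, by 0.25. NEDD9, a scaffold of the Cas family, and TNS3, a tensin, each fell by 0.21, and DAB2, an endocytic adaptor, fell by 0.14. The call of DAB2 (limma, adjusted p = 0.0433) was lost with the replicate block (0.0526), without the expression filter and with a variance prior without trend. It was also lost when vector replicates 2 or 3 or any of the shYB1 libraries was left out. The call of NEDD9 was lost without replicate 1 of either group. By part of the list, 5 of 13 activators and linkers, 5 of 17 signalling proteins, 1 of 8 inhibitors and sorting factors and 2 of 8 tetraspanins and hemidesmosome genes rose, where 18.7% of all genes did.

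The list of basement membrane components and other ligands and receptors held 35 genes in the table, of which 23 were tested. It had 5 that fell and 6 that rose, where 6.93% and 18.7% of all genes did, with a median of 0.02. After rescaling 7 were lower and 4 higher, beside 12.2% and 11.2% of all genes. The largest falls belonged to cell surface partners. VCAM1, a ligand of integrins with the ITGA4 chain, was at 109, 115 and 111 FPKM in vector cells and 64.4, 69.2 and 63.4 FPKM in shYB1 cells, and fell by 0.76 (limma, adjusted p = 1.63e-06). ICAM1, a ligand of the ITGB2 integrins, was at 74.1, 75.7 and 76.9 FPKM against 43.5, 45.1 and 45.3 FPKM and fell by 0.76 (limma, adjusted p = 4.74e-07). ITGA4 and ITGB2, the chains named for these ligands, were themselves below 1 FPKM in every library.

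BCAM, a receptor for laminins with the LAMA5 chain, was at 18.1, 19.9 and 19.6 FPKM in vector cells and 11.9, 12.9 and 12.7 FPKM in shYB1 cells and fell by 0.62 (limma, adjusted p = 3.13e-05). SPP1, osteopontin, an RGD ligand of ITGAV integrins, fell from 1250 ± 22.0 to 884 ± 15.3 FPKM, by 0.49. BCAM fell alongside LAMA5, and SPP1 fell while ITGB3 and ITGB5 rose.

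NTN4, a netrin that binds laminin gamma chains, was at 1.12, 1.02 and 1.20 FPKM in vector cells and 2.31, 1.74 and 2.11 FPKM in shYB1 cells, and rose by 0.82 (SE 0.118, limma, adjusted p = 0.000927). TNC, tenascin-C, rose from 7.83 ± 0.0880 to 10.6 ± 0.343 FPKM (0.43) and DAG1, the laminin receptor dystroglycan, from 11.8 ± 0.273 to 14.7 ± 0.437 FPKM (0.32). The groups of all these genes were apart. EDIL3, an RGD ligand, rose by 0.16 and HSPG2, perlecan, by 0.15, but neither passed after rescaling (adjusted p = 0.115 and 0.0888 by limma). Both calls were also lost with a variance prior without trend and without vector replicate 1 or shYB1 replicates 1 or 2. The call of EDIL3 was lost without the expression filter and without vector replicate 3 as well. NID1, a nidogen that links laminin to collagen IV, was at 0.0865, 0.0650 and 0.0421 FPKM in vector cells and at 0, 0.00650 and 0 FPKM in shYB1 cells, too low to test. The fifth gene that fell was its relative NID2, from 29.6 ± 1.21 to 23.5 ± 0.869 FPKM (-0.33), named here after its values were seen.

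**Figure D4:**
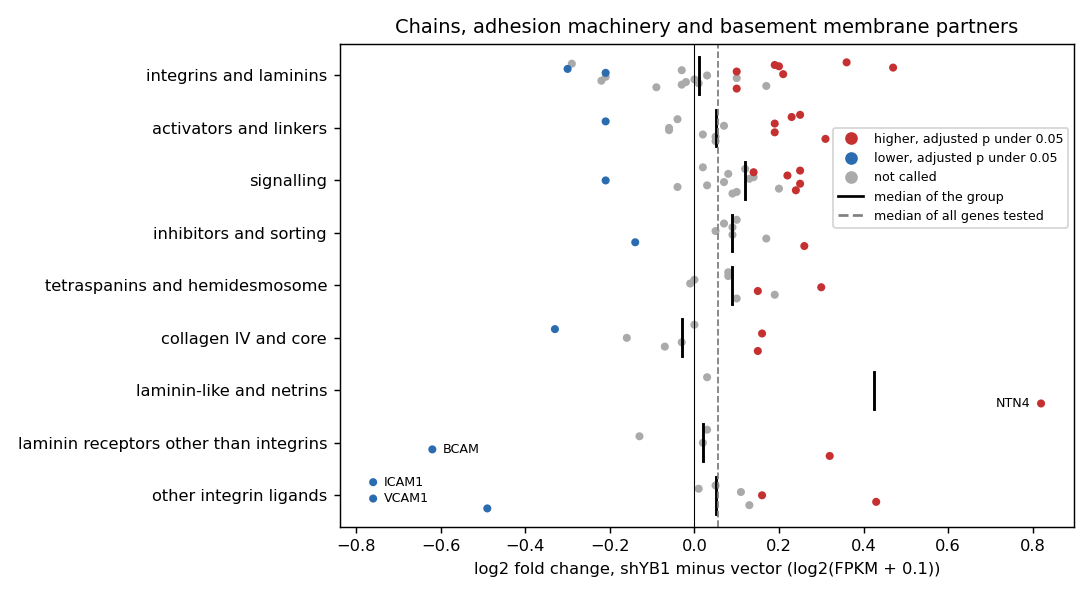
Log2 fold change (shYB1 minus vector) of each tested gene, one row for the integrin and laminin chains and one for each part of both lists, red where higher and blue where lower at an adjusted p under 0.05, with short black lines at row medians and the dashed line at the median of all genes tested. VCAM1, ICAM1 and BCAM on the left and NTN4 on the right lie beyond the range of the chains themselves, which runs from -0.30 to 0.47.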

How the data were processed

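RNA from 786-O cells was sequenced in 6 libraries, 3 vector and 3 shYB1, grouped by the labels. The authors deposited FPKM for 20030 genes in each library. The submitters' processing notes name Trimmomatic, HISAT2, Cufflinks, HTSeq, DESeq and GRCh38, without versions or roles. Raw counts were not used here, so depth is known only relatively and no counting interval is given. The 10439 genes averaging 1 FPKM or more were tested as log2(FPKM + 0.1) with limma 3.58.1 in R 4.3.3 (trend and robust variance prior), with Benjamini-Hochberg adjustment over all of them and a threshold of 0.05. Fold changes on this scale understate those of low genes. On data simulated for the shYB1 and vector comparison of 10439 genes, 100 of 100 genes with a 2-fold change and 79 of 100 with a 1.4-fold change were recovered, with 5 false calls. Only 200 genes were changed in the simulation, whereas 25.7% of genes were called in the data. Changes smaller than 1.4-fold, such as those of most called chains, were not simulated. Ratios were tested with exact permutation tests (SciPy 1.17.1). Gene positions and promoters come from RefSeq (GRCh38.p14) and the strands of genes from the GENCODE annotation. Integrin and laminin genes are named, and from each of the other lists up to 4 genes per direction with the largest change at an adjusted p under 0.05, beside TLN1, PTK2, NID1, HSPG2 and YBX1. A few genes that these rules cover are counted but not reported here. Members and lists were chosen with earlier results of these data known. Alternatives were 2 other pseudocounts, no filter or a filter at 5 FPKM, median-of-ratios or common-total rescaling, a variance prior without trend, a replicate block and leaving out each library.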

Additional observations from a re-analysis of the deposited data

How the results depend on the processing

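With median-of-ratios rescaling, 4 chains were lower and 3 higher (2 and 7 as reported), the median over the chains was -0.044, and over all genes 1273 were lower and 1171 higher (723 and 1956 as reported). With a variance prior without trend, 4 chains were lower and 4 higher. Leaving out 1 library gave 3 to 7 higher chains: 3 without vector replicate 2 or shYB1 replicate 2, and 4 without vector replicate 1 or shYB1 replicate 3. The lower genes of the adhesion list numbered 1 to 2 on leaving out a library (3 as reported), with 1 without shYB1 replicate 1. Fewer samples enter these fits. The cause of the other shifts was not tested. Over 21 chains and 14 settings, 256 of 287 values kept their side of the threshold, 26 lost the call, 5 gained it and no sign of a called value turned. ITGA5, ITGAV, ITGB7, LAMA3 and LAMB1, all near 0 and not called, changed sign in some settings. Correlations of deviations between the groups were -0.169, -0.059 and -0.00824 for the same replicate number, and -0.0507 to 0.113 for different numbers. With 3 libraries a group, these values cannot show whether the samples were paired. A fit with the replicate block gave 2 lower and 7 higher chains. Depth behind FPKM is unknown, which limits what can be said of chains under 1 FPKM.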

Other observations

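Of the genes annotated to the KEGG pathway ECM-receptor interaction that are neither integrins nor laminins, 22 of 50 in the table were tested. Of these, 4 were lower and 9 higher in shYB1 libraries by limma with Benjamini-Hochberg adjustment, where 6.93% and 18.7% of all genes were. Median-of-ratios rescaling gave 6 of each, beside 12.2% and 11.2% of all genes. CDH6, a cadherin of the renal tubule that carries an RGD motif, was at 47.6, 48.4 and 47.7 FPKM in vector cells and 33.3, 32.8 and 32.8 FPKM in shYB1 cells, a difference larger than the spread in either group. PAX2, another renal epithelial marker, was at 16.5 to 17.5 FPKM in vector cells and 18.1 to 19.5 FPKM in shYB1 cells, while PAX8 and KRT8 overlapped between the groups.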
